A study of Mus musculus with 22 samples.

Results

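Sim2 and 9 other transcription factor genes of the basic helix-loop-helix (bHLH) class, namely Sim1, Twist1, Twist2, Hand1, Hand2, Tcf21, Scx, Hes1 and Id1, were followed in cultured fibroblasts with and without Lsh. They were taken by gene symbol, 10 of the 16271 genes with a row in all 4 RNA libraries, and each had 1 RefSeq transcript row. The 10 genes were chosen by hand with their KO and WT levels in these libraries already known, so the difference between the genotypes is a description here and not a test. Of the 10, 7 reached 0.5 RPKM (reads scaled to transcript length in kilobases and to M, or mega, mapped reads) in at least 2 libraries and entered the fits over 11149 genes. Sim1, Hand1 and Tcf21 did not.

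All libraries came from primary mouse embryonic fibroblasts (MEFs), cells grown out of the body of C57BL/6 embryos at stage E13.5 and used at passage 3 to 4. WT cells were Lsh+/+ and KO cells Lsh-/-, with no treatment named for either, and Lsh, encoded by Hells, is an SNF2-type remodelling enzyme on which normal DNA methylation depends. Each genotype had 2 libraries, called WT1, WT2, KO1 and KO2 after the genotype and replicate number in the labels. A run of 4 values below is RPKM in the order WT1, WT2, KO1, KO2. MEFs are a mixed culture, and with bulk RNA fewer cells of a type and less RNA per cell cannot be told apart. The labels call the libraries biological replicates without saying whether a number marks a shared litter or day, so p-values measure only the spread between these libraries.

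A bHLH protein binds the E-box, CANNTG, as a dimer. Twist, Hand, Tcf21 and Scx proteins pair with widely made E proteins and mark mesenchyme of limb, heart, kidney and tendon, while Id proteins bind E proteins but lack the basic DNA-binding part and so hold them off DNA. Sim1 and Sim2 belong to the bHLH-PAS branch, pair with Arnt or Arnt2 and recognise a site with the core ACGTG. Hes1 is a repressor made in response to Notch signalling.

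Depth was 122.5 to 176.6 M mapped reads per library, as recovered from whole-read steps, and 9176 to 10068 genes reached 1 RPKM. Hells was at 0.865, 1.06, 0.430 and 0.550 RPKM, lower in both KO libraries. Libraries resembled each other by number more than by genotype, with Pearson's r across genes of 0.980 and 0.983 within the numbers and 0.893 and 0.897 within the genotypes. All 12 fibroblast markers passed the filter, with a summed level of 2837 to 3503 RPKM in WT and 3037 to 3504 RPKM in KO. Lum and Dcn, matrix proteoglycans among those markers, were low in the number 1 libraries, at 0.718 and 1.27 RPKM for Lum and 3.88 and 13.9 RPKM for Dcn for WT1 and KO1, against 104.6 RPKM or more in both number 2 libraries. In a limma fit of genotype and replicate number 8 of the 12 passed as higher in number 2 and 2 as lower. The shares over all tested genes were 35.8% and 11.9%. Vim went the other way, at 1307 and 1198 RPKM in WT1 and KO1 against 879 and 782 RPKM in WT2 and KO2.

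Promoter windows from RefSeq (GRCm38.p6, another build than the mm9 of the expression files) were found for 5 of the 10 genes, Sim1, Twist1, Twist2, Hand2 and Tcf21. Each window runs from 250 bases before the transcript start through the first 50 bases from it. The windows printed are those of Twist1 and Hand2, whose RNA levels followed each other most closely among the 7 tested of the 10 genes, of Twist2, the paralog of Twist1, and of Sim1, the paralog of Sim2. Capitals mark E-boxes (CANNTG) and the Sim and Arnt core ACGTG, searched on both strands. The core can lie inside an E-box that reads CACGTG.
Twist1 chr12:33957421-33957720, plus strand: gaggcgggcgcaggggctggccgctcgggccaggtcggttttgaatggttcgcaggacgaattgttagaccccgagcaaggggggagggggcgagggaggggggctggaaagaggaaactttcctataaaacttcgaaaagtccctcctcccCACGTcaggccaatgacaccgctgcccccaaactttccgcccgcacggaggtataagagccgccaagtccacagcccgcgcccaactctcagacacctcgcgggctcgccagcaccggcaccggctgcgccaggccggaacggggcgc
Hand2 chr8:57320733-57321032, plus strand: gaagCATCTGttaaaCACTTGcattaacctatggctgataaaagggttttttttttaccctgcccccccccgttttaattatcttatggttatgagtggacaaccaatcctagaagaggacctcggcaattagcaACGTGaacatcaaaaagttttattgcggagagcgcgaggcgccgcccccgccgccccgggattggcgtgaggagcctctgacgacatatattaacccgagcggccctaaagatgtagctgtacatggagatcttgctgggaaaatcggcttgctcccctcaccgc
Twist2 chr1:91801211-91801510, plus strand: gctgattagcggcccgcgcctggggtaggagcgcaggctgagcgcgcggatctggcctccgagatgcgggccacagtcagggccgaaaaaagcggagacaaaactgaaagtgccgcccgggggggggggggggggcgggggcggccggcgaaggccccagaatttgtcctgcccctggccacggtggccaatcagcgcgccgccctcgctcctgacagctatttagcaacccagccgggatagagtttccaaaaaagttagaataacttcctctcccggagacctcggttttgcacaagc
Sim1 chr10:50895401-50895700, plus strand: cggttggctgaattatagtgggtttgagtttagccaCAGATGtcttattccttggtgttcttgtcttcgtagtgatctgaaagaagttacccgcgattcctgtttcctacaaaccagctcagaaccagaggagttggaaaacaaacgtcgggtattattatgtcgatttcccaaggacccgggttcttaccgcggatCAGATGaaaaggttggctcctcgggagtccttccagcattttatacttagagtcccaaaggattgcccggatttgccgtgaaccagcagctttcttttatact
Twist1 held 1 core, beginning at position -98 from the start, and no E-box. Hand2 held 1 core, beginning at -115, and 2 E-boxes, CATCTG and CACTTG. Sim1 held 2 E-boxes, both CAGATG, and no core, and Twist2 held neither. An E-box was present in 72.3% of the 32851 promoters listed by RefSeq and the core in 19.6%. The N-box CACNAG, a site bound by Hes proteins, was present once in Twist2 and once in Tcf21 and in 42.5% of all promoters. Twist1 and Twist2 had 27 and 25 CpG dinucleotides in the window, Hand2 17, Sim1 13 and Tcf21 8, where the median promoter had 7. The share of promoters with fewer was 84.5% for Twist1, 81.6% for Twist2, 68.6% for Hand2, 62.1% for Sim1 and 51.4% for Tcf21.

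By mean level over the 4 libraries the order was Twist2 (66.2 ± 14.8 RPKM, SD, n = 4), Id1 (65.5 ± 17.4), Twist1 (45.8 ± 28.4), Hes1 (40.0 ± 7.22), Scx (10.0 ± 8.56), Hand2 (5.34 ± 3.74), Sim2 (5.05 ± 5.72), Tcf21 (0.269 ± 0.333), Sim1 (0.178 ± 0.164) and Hand1 (0.0582 ± 0.0254). RPKM divides by transcript length, so levels may be set beside each other between genes. The ranges of neighbours in this order overlapped except at 1 step, between Hes1, at 33.4 RPKM or more, and Scx, at 20.7 RPKM or less. The first 4 genes were thus well expressed in every library, although Twist1 varied strongly between libraries, from 18.4 to 73.4 RPKM. Scx, Hand2 and Sim2 also varied strongly between libraries, and the last 3 stayed below 1 RPKM in every library.

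**Figure D1:**
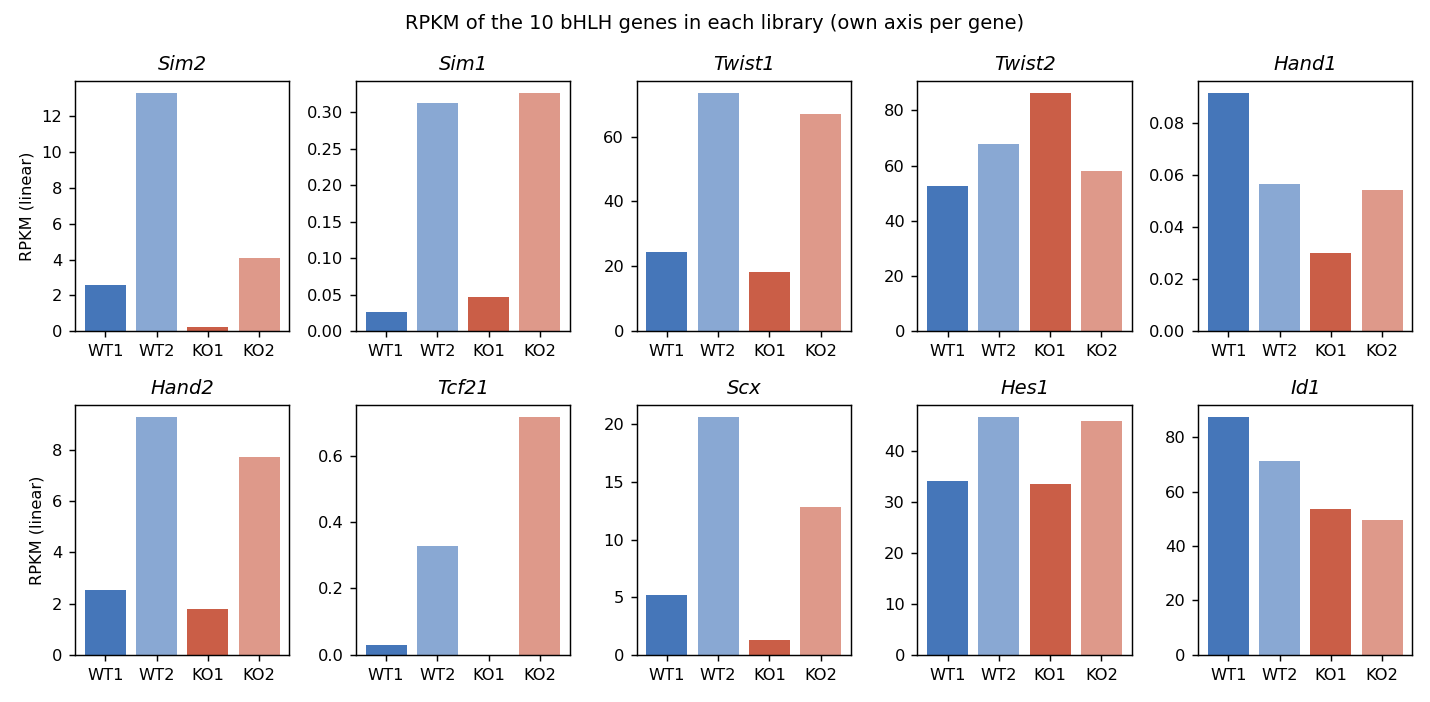
RPKM (linear axis from 0, its own scale for each gene) of the 10 bHLH genes in the 4 libraries, 1 bar per library, WT in blue and KO in red, number 2 in the lighter shade. Sim2, Scx, Twist1 and Hand2 are higher in both number 2 libraries than in their number 1 counterparts, and Id1 alone among the well expressed genes has both KO bars below both WT bars.

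Sim2 (chromosome 16, 94085506 to 94348639, mm9, plus strand), a bHLH-PAS factor named after the Drosophila gene single-minded, was at 2.57 RPKM in WT1, 13.3 in WT2, 0.254 in KO1 and 4.07 in KO2. KO1 was lowest and WT2 highest, and KO2 lay above WT1, so the genotypes overlapped although KO was below WT within each number. The KO level was 0.0987 of WT in number 1 and 0.306 of WT in number 2. On the log2(RPKM + 0.5) scale, which understates changes of low genes, the differences were -2.03 and -1.59, with a mean of -1.81 ± 0.31 (SD, n = 2 numbers). That mean was the 4th lowest of the 11149 tested genes, a rank given as a description because the gene was chosen for it. With single libraries left out the mean difference was -0.51 without KO1, -0.73 without WT2, -2.89 without WT1 and -3.11 without KO2, so its size moved with the balance of numbers between the genotypes.

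The genes flanking Sim2 on chromosome 16 had KO to WT ratios nearer to 1. On the upstream side Dopey2, Morc3 and Chaf1b, the last a subunit of a histone chaperone, had ratios of 1.34, 1.00 and 0.617 in number 1 and 1.04, 1.22 and 0.837 in number 2. On the far side Hlcs, the enzyme that attaches biotin to carboxylases, and Pigp, a factor in lipid anchor synthesis, had ratios of 1.17 and 0.999 in number 1 and 1.24 and 1.20 in number 2. Ripply3 lay between them and stayed at or below 0.0481 RPKM in every library, so no ratio is given for it. None of the 5 tested neighbours passed in a fit of genotype and replicate number (limma adjusted p 0.677 to 0.928), where 0.673% of all tested genes did.

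**Figure D2:**
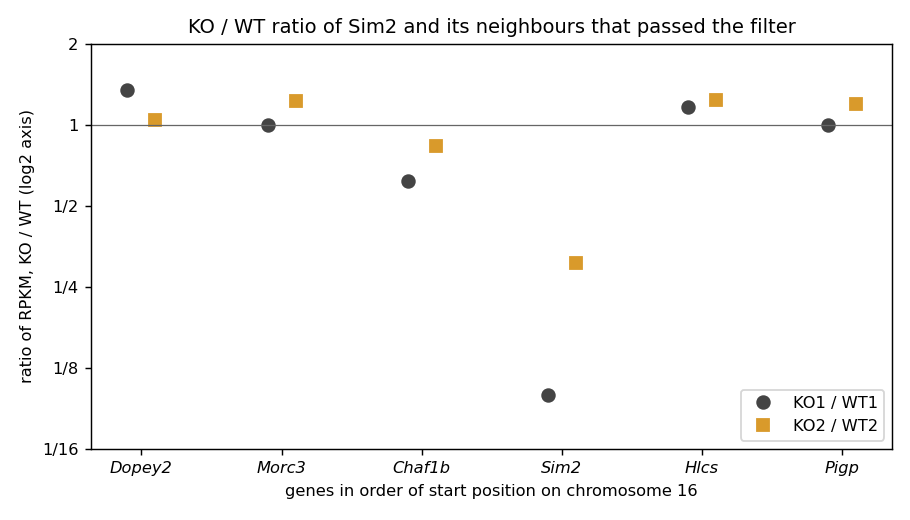
Ratio of KO to WT RPKM (log2 axis) within number 1 (circles) and number 2 (squares) for Sim2 and the 5 tested genes nearest to it, in order of start position on chromosome 16. Sim2 lies at 0.0987 and 0.306, and the neighbours between 0.617 and 1.34.

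Sim1, the paralog of Sim2 (chromosome 10, 50615458 to 50708959, plus strand), was at 0.0257 RPKM in WT1, 0.313 in WT2, 0.0466 in KO1 and 0.327 in KO2. At its recovered transcript length of 7355 bases these values stand for 25, 406, 42 and 327 reads, whole within 0.02 of a read. The level followed the replicate number, and the genotypes overlapped. KO lay slightly above WT within both numbers, by 0.06 and 0.02 on the log2 scale.

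RNA of the partners of Sim proteins was present. Arnt, the general partner of bHLH-PAS factors, was at 7.83, 10.9, 7.30 and 13.4 RPKM. Of 20 bHLH-PAS partners and relatives listed, 14 were tested and 0 passed in either direction between KO and WT, where 0.377% of all tested genes passed as higher and 0.296% as lower in the limma fit that includes the number. Their median log2 difference was 0.09 beside -0.02 over all tested genes. With so few genes passing, a count of 0 in this or a later list says nothing about the list. Hif1a, the oxygen-regulated relative, had the highest level at 19.8, 31.2, 19.3 and 41.9 RPKM. Arntl and Clock, the partners of the circadian activator, followed at 7.36, 2.42, 11.3 and 3.78 RPKM and at 5.14, 2.80, 5.16 and 3.32 RPKM.

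Twist1 (chromosome 12, 34642537 to 34644697, plus strand), a regulator of cranial and limb mesenchyme, was at 24.5 RPKM in WT1, 73.4 in WT2, 18.4 in KO1 and 66.8 in KO2. Both number 2 libraries were high and both number 1 libraries low, and the genotypes overlapped. The KO minus WT log2 differences were -0.41 in number 1 and -0.14 in number 2. Twist2 (chromosome 1, 93698055 to 93744605, plus strand), the paralog best known from dermis, was at 52.7, 67.9, 86.3 and 58.0 RPKM in the same order. KO1 was highest and WT1 lowest, and the difference had opposite signs in the numbers, 0.71 in number 1 and -0.22 in number 2. Twist1 was below Twist2 in WT1 and KO1 and above it in WT2 and KO2.

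Of 15 mesenchymal transcription factors and genes linked to Twist, 14 were tested and 0 passed between KO and WT, beside 0.673% of all tested genes. The median log2 difference of the 14 was -0.14. Vim, the intermediate filament protein of mesenchymal cells, had the highest level, at 1307, 879, 1198 and 782 RPKM. Cdh11, a cadherin of mesenchyme, was at 64.0, 148.5, 80.0 and 185.2 RPKM. Prrx1, a homeobox factor of limb mesenchyme, was at 62.7, 91.8, 67.2 and 109.2 RPKM. Fgfr1, a fibroblast growth factor receptor, was at 27.4, 37.2, 50.4 and 31.6 RPKM and had, like Twist2, its highest value in KO1.

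Hand2 (chromosome 8, 59799781 to 59803315, plus strand), a regulator of heart and of the posterior limb bud, was at 2.52 RPKM in WT1, 9.30 in WT2, 1.80 in KO1 and 7.73 in KO2. The values ordered by number as for Twist1, and the genotypes overlapped. The KO minus WT log2 differences were -0.40 and -0.25. Its paralog Hand1 (chromosome 11, 57642216 to 57645650, minus strand), known from placenta and heart, was at 0.0917, 0.0567, 0.0301 and 0.0542 RPKM, that is 23, 19, 7 and 14 reads at a length of 1898 bases. Both KO values were below both WT values, at a level of few reads. Tcf21 (chromosome 10, 22537080 to 22539935, minus strand), a factor of epicardium and of kidney and lung mesenchyme, was at 0.0308 RPKM in WT1, 0.327 in WT2, 0 in KO1 and 0.717 in KO2. Those values are whole reads at either of 2 lengths, with 5, 71, 0 and 120 reads for 1229 bases or 10, 142, 0 and 240 reads for 2458 bases. Its number 2 libraries were above its number 1 libraries in both genotypes.

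Of 14 limb, heart and epicardial regulators listed as the context of Hand and Tcf21, 10 were tested. Between KO and WT 0 of the 10 passed, beside 0.673% of all tested genes, and their median log2 difference was -0.09. Gli3, a mediator of hedgehog signalling in the limb, was at 5.52, 9.56, 4.54 and 9.14 RPKM. Gata6, a zinc finger factor of heart, was at 2.36, 7.00, 1.88 and 6.87 RPKM. Both had their higher values in number 2. Edn1, the endothelin upstream of Hand genes in the jaw arches, was at 4.06, 1.63, 1.50 and 1.67 RPKM, highest in WT1, and Tbx18, an epicardial factor, was at 2.38, 1.59, 1.98 and 2.75 RPKM.

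Scx (chromosome 15, 76287869 to 76289899, plus strand), which encodes scleraxis, a marker of tendon and ligament progenitors, was at 5.23 RPKM in WT1, 20.7 in WT2, 1.32 in KO1 and 12.8 in KO2. The libraries stood in the same order as for Sim2, with KO1 lowest, WT2 highest and KO2 above WT1. The KO level was 0.253 of WT in number 1 and 0.620 in number 2, and the log2 differences were -1.65 and -0.67, with a mean of -1.16 ± 0.69 (SD, n = 2 numbers). Without KO1 the unpaired difference, KO2 against the mean of WT1 and WT2, was 0.27, the opposite sign. That value mixes the number difference with the genotype difference, and within number 2 the difference stays at -0.67. Scx lies within Bop1, a ribosome biogenesis gene on the other strand (76283427 to 76307700), and no source used here says that reads were counted by strand, so the Scx level is uncertain. Bop1 was at 6.81, 5.29, 5.72 and 4.80 RPKM and did not share the library order of Scx.

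Of 12 tendon genes listed, 10 had rows and were tested. Between the genotypes 0 of the 10 passed in either direction, beside 0.673% of all tested genes, and their median log2 difference was -0.10. Col1a2 and Col1a1, the chains of type I collagen, were at 308 and 318 RPKM in WT1, 623 and 517 in WT2, 289 and 291 in KO1, and 617 and 464 in KO2. Egr1, an early response factor active in tendon cells, was at 55.1, 359, 34.0 and 295 RPKM, and Tnc, tenascin C, was at 308, 121, 510 and 154 RPKM in the same order. Egr1 and both collagens were higher in number 2 and Tnc was higher in number 1.

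Hes1 (chromosome 16, 30065444 to 30067883, plus strand) was at 34.1 RPKM in WT1, 46.7 in WT2, 33.4 in KO1 and 45.9 in KO2. Among the 7 tested of the 10 genes it differed least between the genotypes, by -0.03 on the log2 scale in each number. Median-ratio scaling of the libraries moved the mean to 0.0052, the other side of 0. In the Notch pathway, which acts through Hes1, 15 of 22 listed genes were tested. Between KO and WT 0 of the 15 passed, beside 0.673% of all tested genes, and their median log2 difference was 0.01. Jag1, a Notch ligand, was at 18.4, 8.75, 35.9 and 13.4 RPKM, higher in KO within each number, and missed the threshold (log2 difference 0.77, SE 0.17, limma adjusted p 0.0852). Adam10, a protease that cuts the receptor, was at 26.9, 29.0, 27.6 and 36.4 RPKM, and Ncstn, a subunit of gamma-secretase, at 12.1 to 17.3 RPKM in WT and at 12.9 RPKM in KO2, within that range.

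Among Hes, Hey and Bhlhe relatives, 6 of 11 were tested and 0 passed, beside 0.673% of all tested genes. The median of the 6 was 0.09. Bhlhe40, a repressor that responds to oxygen and the clock, was at 36.2, 36.7, 38.3 and 38.9 RPKM, a narrow range. Hes6 was at 7.42, 12.3, 7.80 and 13.6 RPKM, Hey1 at 1.83, 3.36, 2.27 and 4.56 RPKM, and Bhlhe41 at 1.25, 4.07, 1.25 and 2.79 RPKM, each higher in number 2 than in number 1 within both genotypes.

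Id1 (chromosome 2, 152562011 to 152563147, plus strand), an early target of BMP signalling, was at 87.5 RPKM in WT1, 71.2 in WT2, 53.5 in KO1 and 49.6 in KO2. Both KO libraries were below both WT libraries, and among the 7 tested of the 10 genes Id1 was the only one with this order. The KO level was 0.611 of WT in number 1 and 0.697 in number 2, or -0.70 and -0.52 on the log2 scale, with a mean of -0.61 ± 0.13 (SD, n = 2 numbers).

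Of the other Id genes and the E proteins they bind, 0 of 6 tested passed between KO and WT. The share over all tested genes was 0.673%, and the median log2 difference of these 6 was -0.16. Id3, the most abundant of them, was at 145.1, 178.3, 105.8 and 136.05 RPKM, with KO below WT within each number with log2 differences of -0.45 and -0.39. Id2 was at 22.1, 41.1, 25.0 and 31.5 RPKM, with opposite signs in the numbers. The E protein genes Tcf12 and Tcf3 were at 12.7 and 12.2 RPKM in WT1, 20.5 and 23.0 in WT2, 11.4 and 11.1 in KO1, and 24.6 and 20.7 in KO2. RNA of these dimer partners of the mesenchymal factors was thus present in every library, and protein was not measured.

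In the BMP pathway, upstream of Id1, 21 of 24 listed genes were tested. The list's median log2 difference between KO and WT was -0.06. Grem1, a secreted BMP antagonist, was at 56.7, 8.39, 50.6 and 9.75 RPKM, Smad7, an inhibitor within the pathway, at 41.6, 14.8, 38.0 and 12.9 RPKM, and the receptor Acvr1 at 20.0, 18.0, 19.5 and 17.1 RPKM. These 3 had KO minus WT means of 0.02, -0.16 and -0.06.

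Most bHLH factors listed for other lineages were below the filter, and others lacked rows in some libraries. None of 18 myogenic and other mesodermal factors was tested. Of the 18, 12 had rows in all 4 libraries and were below the filter, and 5 had rows in the number 1 libraries only. Among the 12 the highest single value was 1.34 RPKM for Myog, a myogenic factor, in KO2. Lyl1, a blood factor, reached 0.968 RPKM in WT2, Myod1 0.349 RPKM in KO2 and Tal1 0.0953 RPKM in WT2. Of 19 neural factors 12 had rows in all 4 libraries and 7 in the number 1 libraries only. Of the 12, 2 were tested and 0 passed, beside 0.673% of all tested genes. The 2 were Atoh8 at 9.43, 9.13, 1.83 and 6.40 RPKM and Bhlhe22 at 3.69, 1.41, 0.765 and 1.95 RPKM. Their median was -0.98, and KO1 was the lowest library for both.

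Across the 7 tested genes, 6 had KO below WT within both numbers (Twist2 was the exception), where 31.4% of all tested genes did so and 22.5% were higher in both. Both KO libraries were below both WT libraries in 1 of the 7, beside 7.32% of all tested genes, and above them in 0 of the 7, beside 6.1%. The median log2 difference was -0.32 beside -0.02 over all tested genes. In limma with genotype as the only term 0 of the 11149 genes passed, with 41 at an unadjusted p under 0.05. With the replicate number also fitted 75 genes (0.673%) passed, and 1 of the 7, Sim2, was among them. Since the genes were chosen with this difference known, nothing is read from these counts. Sim2 did not pass when the highest transcript row stood for each gene, a setting in which 3 genes did.

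**Figure D3:**
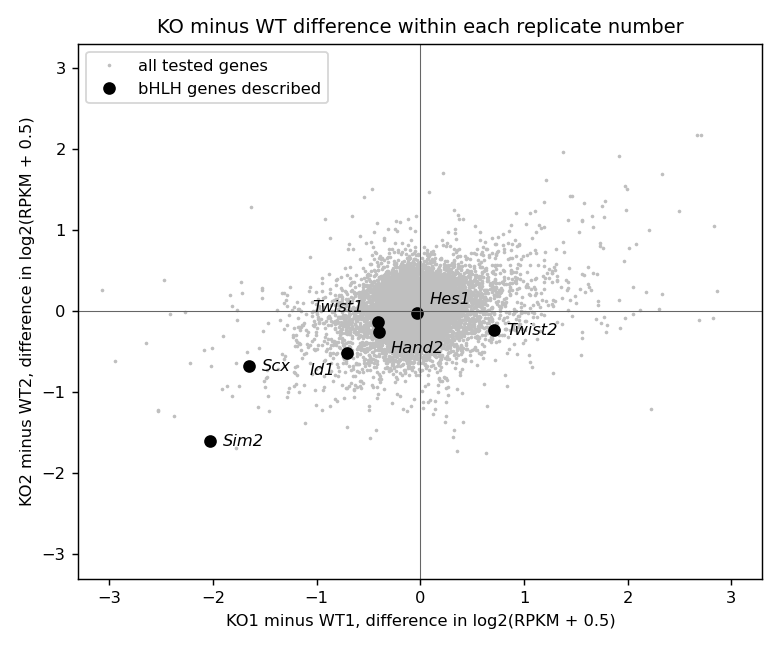
KO minus WT difference in log2(RPKM + 0.5) within number 1 (horizontal) and within number 2 (vertical), 1 point per gene, all 11149 tested genes in grey and the 7 tested bHLH genes in black. Sim2 at -2.03 and -1.59 and Scx at -1.65 and -0.67 lie toward the lower left edge of the cloud, while Hes1 lies at its centre.

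The replicate number gave a larger contrast for most of these genes. Their levels in these libraries were known when they were chosen, so the p-values by number are descriptions as well. In the limma fit of genotype and number, 5 of the 7 tested genes passed and all 5 were higher in number 2, where 47.7% of all tested genes passed, 35.8% as higher and 11.9% as lower. Sim2 was higher in number 2 by 2.38 (SE 0.19, limma adjusted p 4.84e-06), where KO1 was at 0.0623 of KO2 and WT1 at 0.193 of WT2. Scx was higher by 2.38 (SE 0.24, limma adjusted p 0.000161), with ratios of 3.95 in WT and 9.69 in KO. Hand2 was higher by 1.77 (SE 0.17, limma adjusted p 1.96e-05) and Twist1 by 1.70 (SE 0.17, limma adjusted p 2.32e-05). All 5, Hes1 included, had both number 2 values above both number 1 values, as did 53.3% of all tested genes, and 0 of the 7 had both below, beside 21.2%.

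The step was smaller or absent for the others. Hes1 was higher in number 2 by 0.45 (SE 0.16, limma adjusted p 0.0429), but the median of all tested genes was also higher, by 0.25, and median-ratio scaling, which shifts that median by -0.25, left Hes1 at 0.17 with a limma adjusted p of 0.424. Twist2 at -0.10 (SE 0.23, limma adjusted p 0.738) and Id1 at -0.20 (SE 0.16, limma adjusted p 0.333) did not pass, and Id1 passed as lower with that scaling, at -0.49 (limma adjusted p 0.0243). The median over the 7 genes was 1.70. Left-out libraries moved the Sim2 value to 1.37 without KO1, 1.59 without WT2, 3.18 without KO2 and 3.40 without WT1, and the Scx value to 1.55 without KO1. These left-out values are unpaired and mix the genotype difference into the number difference. What the numbers stand for, such as a litter, a day or a run, is not given in the sources used here.

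**Figure D4:**
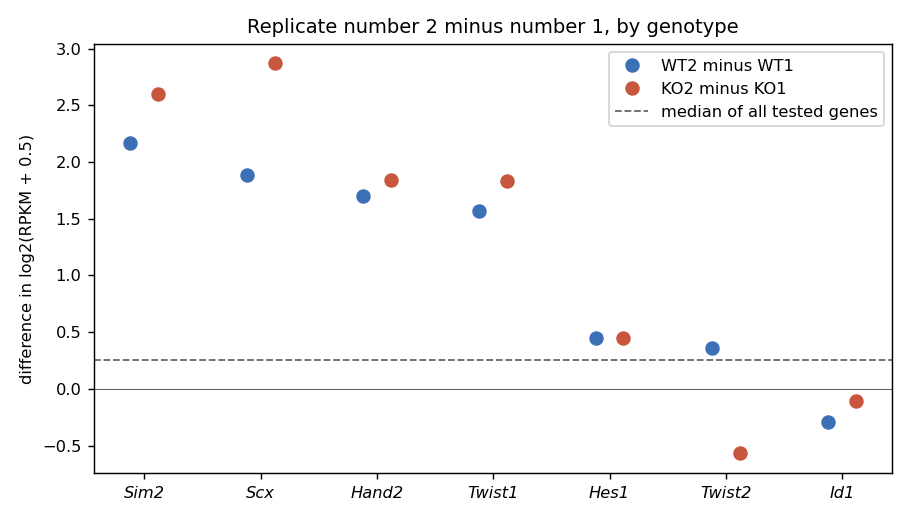
Difference in log2(RPKM + 0.5) between number 2 and number 1, in WT (blue) and in KO (red), for the 7 tested bHLH genes in order of their mean difference, with the median of all tested genes at 0.25 as a dashed line. Sim2, Scx, Hand2 and Twist1 lie at 1.57 or more in both genotypes, and Twist2 has opposite signs in them.

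Calls by number in the lists of related genes are given beside the shares over all tested genes, 35.8% higher and 11.9% lower in number 2. Higher in number 2 were 6 of the 14 tested bHLH-PAS relatives, 5 of 6 E and Id proteins, 4 of 6 Hes, Hey and Bhlhe factors, 8 of 10 tendon genes, 8 of 10 limb, heart and epicardial regulators, 6 of 14 mesenchymal factors, 10 of 21 BMP genes and 5 of 15 Notch genes. Lower in number 2 were 3, 0, 0, 2, 0, 4, 5 and 2 of them in the same order, all by limma. Some of the higher genes had both number 1 values under 0.5 RPKM and passed the filter only through the number 2 libraries, where they had to be higher: 4 limb, heart and epicardial regulators, 2 tendon genes, 2 BMP genes, 1 bHLH-PAS relative and 1 Notch gene. The counts therefore describe the genes that passed and nothing is read from them about the lists. Arnt2, the tissue-restricted partner of Sim proteins, was at 1.62, 5.10, 1.30 and 5.26 RPKM, higher in number 2 by 1.54 (limma adjusted p 7.50e-05).

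Likeness of pattern was measured as the distance between log2(RPKM + 0.5) values over the 4 libraries after each gene's mean was removed, where a smaller value means a closer pattern. With 4 libraries that split by number, many genes lie close to each other, and the distances are descriptions. For Sim2 the nearest of the tested genes were Fcer1g (0.52), Laptm5 (0.61), Mpeg1 (0.69), Scx (0.71) and C1qc (0.71). Fcer1g encodes an Fc receptor chain, Mpeg1 a pore-forming protein of macrophages and C1qc a chain of complement C1q, all known from macrophages. For Scx the nearest were Mpeg1 (0.34), the scavenger receptor gene Msr1 (0.35), Alox5ap (0.38), A930038C07Rik (0.40) and Fcer1g (0.43).

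The summed level of macrophage and blood markers stood in the library order of Sim2 and Scx, but not every marker did. Cd14 and Lyz2, the latter at 31.1, 42.9, 3.61 and 28.0 RPKM, had KO2 below WT1. Tyrobp, at 0.521, 1.52, 0.0289 and 1.91 RPKM, was highest in KO2. Of 12 markers listed, 10 were tested, and 9 of them were lower in KO within both numbers, beside 31.4% of all tested genes. By limma with the number fitted 4 fell (C1qc, Cd14, Fcer1g and Laptm5), beside 0.296% of all tested genes. The median log2 difference was -1.40 beside -0.02 over all tested genes. The summed level of the 12 markers was 60.1 to 175.7 RPKM in WT and 8.32 to 85.7 RPKM in KO, at 60.1, 175.7, 8.32 and 85.7 RPKM by library. None of the 12 was at 0 in all libraries. Fcer1g was at 2.22, 13.0, 0.273 and 6.05 RPKM, close to the values of Sim2, C1qc at 4.20, 25.5, 0.403 and 10.2 RPKM, Laptm5 at 1.37, 5.87, 0.133 and 2.32 RPKM and Cd14 at 8.25, 15.2, 2.09 and 7.77 RPKM. Their part in the Sim2 and Scx levels was not tested.

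**Figure D5:**
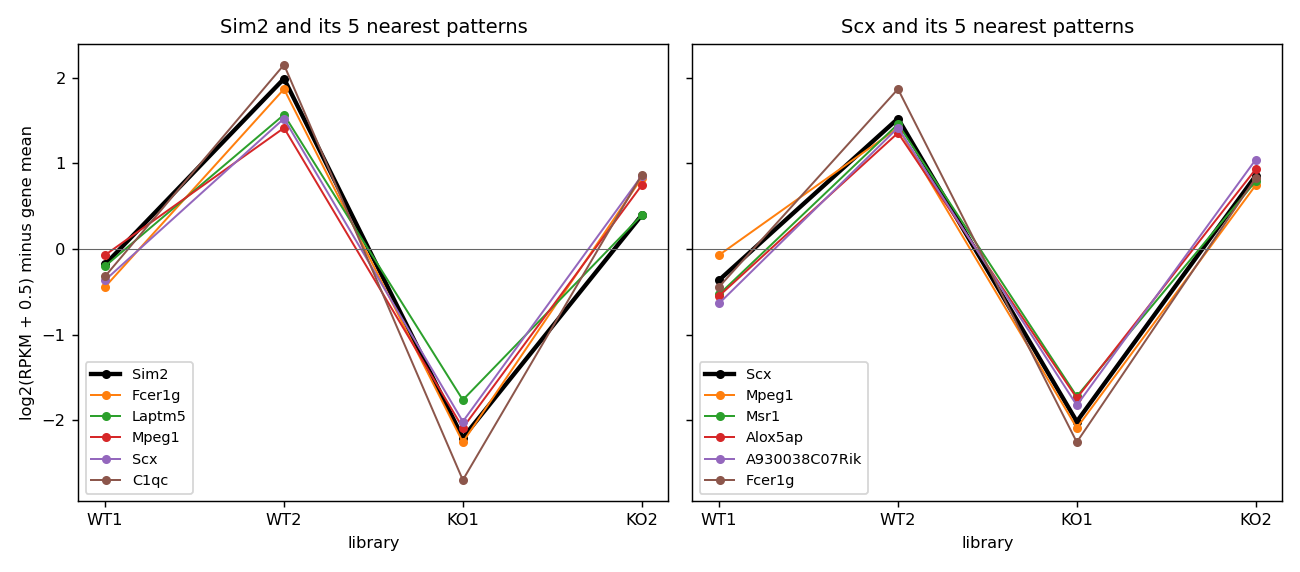
log2(RPKM + 0.5) minus the mean of each gene over the 4 libraries, for Sim2 (left, black) and Scx (right, black) with the 5 tested genes nearest in pattern (colours), and the libraries on the horizontal axis. Every line has its lowest point at KO1 and its highest at WT2, an order that the choice by nearness favours.

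The lists for other cell types did not move alike. Over all tested genes 0.296% passed as lower and 0.377% as higher in KO, shares that stand beside each count here. Of 10 epithelial markers 4 were tested and 2 fell, Krt19 at 13.4, 9.78, 3.56 and 2.70 RPKM and Krt7 at 0.968, 2.56, 0.129 and 1.12 RPKM. Their list had a median of -0.79 and a summed level of 18.6 to 18.8 RPKM in WT and 6.24 to 7.93 RPKM in KO, without overlap. Krt19 was the largest single part of that sum in every library. All 6 mesothelial and epicardial markers were tested, with sums of 17.9 to 30.0 RPKM in WT and 6.11 to 17.4 RPKM in KO and a median of -0.61, and Krt19, which that list shares, was the 1 that fell. Of 5 chondrocyte markers 4 were tested and 1 fell, Col2a1, at 3.92, 5.42, 0.714 and 2.63 RPKM, with a median of -0.06 and sums of 13.8 to 14.0 RPKM in WT and 8.79 to 19.7 RPKM in KO. Tubb3, a neuronal beta tubulin, at 18.5, 14.7, 41.4 and 31.2 RPKM, was the 1 of 3 tested neuronal markers, of 8 listed, that rose, with sums of 18.4 to 32.5 RPKM in WT and 36.0 to 47.0 RPKM in KO and a median of 0.0033.

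None passed among 12 fibroblast, 2 tested of 8 skeletal muscle and 2 tested of 6 endothelial markers, where 0.673% of all tested genes did. The medians of those lists were 0.29, -0.90 and -0.26. Summed levels were 56.0 to 153.1 RPKM in WT and 60.6 to 86.4 RPKM in KO for muscle, and 1.63 to 1.89 RPKM in WT and 0.611 to 2.34 RPKM in KO for endothelium. Fn1, fibronectin, was at 348.6, 294.8, 446.8 and 312.8 RPKM. Acta1, an actin of muscle, was at 129.4, 23.8, 84.0 and 20.8 RPKM, and Kdr, an endothelial growth factor receptor, at 0.918, 1.05, 0.258 and 0.622 RPKM. The part of any of these markers in the levels of the bHLH genes was not tested.

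Twist1 and Hand2 were the closest pair among the 7 tested genes, at a distance of 0.11. Hand2 was the 3rd nearest of all tested genes to Twist1, after Irf1 (0.092) and Ssbp3 (0.094), and Sesn1 (0.12) and Pcdh18 (0.12) came next. Twist1 was the nearest of all tested genes to Hand2, followed by Slc2a3 (0.11), H2afy3 (0.13), Cand2 (0.13) and Cln6 (0.14). Their levels differed, with Twist1 7.90 to 10.2 times Hand2 in RPKM over the 4 libraries. Twist1 and its paralog Twist2, in contrast, were 1.97 apart.

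The other patterns had no gene of this group nearby. Twist2 was nearest to Pcdhgb4 (0.074), a clustered protocadherin, Sec11c (0.10), Abcg1 (0.11), Fgfr1 (0.12) and Dos (0.15), all with their highest value in KO1. Hes1 was nearest to Chd8 (0.0092), Ndufs6 (0.014), Zcchc14 (0.019), Dbnl (0.020) and Zfp746 (0.021). Id1 was nearest to Ctnnd2 (0.060), Pik3r5 (0.11), Hoxa3 (0.12), Gjb5 (0.15) and Ccl9 (0.15), and all 5 had both KO values below both WT values, beside 7.32% of all tested genes. All these genes were picked for likeness over the same libraries. A library order shared with Twist2 or Id1 is therefore favoured by the choice, and nothing is read from it.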

How the data were processed

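RNA from 2 WT and 2 KO libraries was sequenced on a Genome Analyzer IIx after ribosomal RNA removal and poly-A selection, per the labels' protocols. The deposited values are RPKM, which the authors computed for each RefSeq transcript on autosomes. Partek and mm9 are named in the submitters' processing notes, and Cufflinks in the deposited readme. For the aligner, the handling of multi-mapped reads and the use of strand, nothing is stated in these sources. The number 1 files hold 26886 transcript rows and the number 2 files 21136, so the files were made differently by number.

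Rows were summed per gene symbol. A minimum of 0.5 RPKM in 2 or more libraries was set, and the genes above it were fitted on log2(RPKM + 0.5) with limma 3.58.1 (R 4.3.3, eBayes with trend and robust variance), two-sided, with Benjamini-Hochberg adjustment over all tested genes and a threshold of 0.05. The script was tested on simulated data. KO was compared with WT with genotype as the only term (2 residual degrees of freedom) and with genotype and replicate number (1 residual degree of freedom), where the variance pooled over genes carries most of each p-value. Number 2 was compared with number 1 in the same fit, and "rose" and "fell" refer to passing in it. Mapped reads came from whole-read steps within 0.02 of a read. The 10 genes, the lists and the tests were chosen with earlier results of these data known. Named genes are the 10, Hells, each list's genes that passed and otherwise its 4 most abundant, the 5 nearest patterns and 3 neighbours of Sim2 per side. Lum, Dcn, Bop1, Arnt2, Fcer1g, Lyz2 and Tyrobp, where given beyond that rule, were named after their values were seen. Alternatives were other pseudocounts (0.1, 1), scalings, row choices and filters, and left-out libraries. The other 18 samples of the series are not analysed here. Results of a few listed genes are not reported here.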

Additional observations from a re-analysis of the deposited data

How the results depend on the processing

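The count of genes that passed between KO and WT was 0 with genotype as the only term under every alternative run, and 0 to 0 with each library left out. With the replicate number as a block it was 75. The labels do not say that equal numbers pair the samples, and the 2 numbers give 1 correlation of deviations from the genotype means, 0.875 across genes. Under that block the count was 37 with a pseudocount of 0.1, 182 with quantile normalization, 3 with the highest transcript row for each gene and 0 when low values were kept, where 1269 had an unadjusted p under 0.05. The cause was not tested. Of the 7 tested bHLH genes Sim2 passed with both other pseudocounts and both scalings but not with the highest transcript row or with low values kept, and Scx passed with quantile normalization only. The number contrast passed 4617 to 5323 genes over its settings, and median-ratio scaling changed its split from 3992 higher and 1331 lower to 2564 and 2378. The Sim2 difference between KO and WT was -2.30 with a pseudocount of 0.1 and -1.50 with 1. Of 35 such values of the 7 genes under other settings 31 moved by less than the spread between the numbers, and the other 4 were these of Sim2 and those of Hes1 with median-ratio scaling (0.0052) and quantile normalization (-0.0046). With a library left out no fit with both terms has residual degrees of freedom, so those values had no test. They are unpaired differences of group means, so each mixes the number difference into the genotype difference. The KO minus WT values ranged from -3.11 to -0.51 for Sim2, -2.60 to 0.27 for Scx, -1.19 to 0.65 for Twist1 and -1.24 to 0.60 for Hand2. Within both numbers all of these genes were lower in KO with every library kept. Depth limits Hand1, at 7 to 23 reads, and the number 1 libraries of Sim1 (25 and 42 reads) and Tcf21 (0 to 10 reads).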
